A study of Homo sapiens with 2 samples.

Results

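The laminin chains and integrin subunits were examined at day 4 of hematopoietic differentiation in cells derived from H1, an established human embryonic stem cell line, with and without deletion of MEIS2. The genes were chosen by gene family, as 11 laminin chains, 18 integrin alpha subunits and 8 integrin beta subunits. Of these 37 genes, 36 were found among the 17397 genes of both expression tables, and ITGAD, a leukocyte alpha subunit, was not analysed here. The data comprised 2 RNA-Seq libraries, 1 from wild-type (WT) H1 cells and 1 from MEIS2-/- H1 cells, in which the homeobox transcription factor MEIS2 had been disrupted with Cas9 and a lentiviral guide RNA. Both cultures were grown on Matrigel, a laminin-rich extract of mouse basement membrane, and were treated for 2 days with BMP4 (40 ng/ml) plus activin A (50 ng/ml) and then for 2 days with bFGF (50 ng/ml) plus VEGF (40 ng/ml). MEIS2-/- lines were expanded from single cells, and the labels do not name the clone that was sequenced.

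Laminins are large proteins of the basement membrane, each built from an alpha, a beta and a gamma chain, and they are named by the numbers of these chains. The alpha chain carries the main sites for cell receptors. Integrins are receptors made of 1 alpha and 1 beta subunit that bind laminin, fibronectin, collagen or proteins of other cells and connect them with the actin cytoskeleton. Human pluripotent cells attach to laminin and fibronectin through integrins, and laminins with the alpha chains encoded by LAMA4 and LAMA5 are the main laminins of the vascular basement membrane. ITGA2B and ITGA4 are widely used surface markers of early blood cells.

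The mRNA levels are given as FPKM, which scales the fragments of a gene to its transcript length and to the size of the library. Levels of different chains can therefore be compared. Changes are log2 fold changes of MEIS2-/- over WT with 0.1 FPKM added to both values, so that changes of low genes appear smaller than they are. Genes 2-fold or more apart were counted among the 13075 genes that reached 1 FPKM in at least 1 library, and the median over these genes was 0.12. With 1 library per genotype no test between genotypes was possible and no difference has a replicate check, so every difference below is one between these libraries. The depth of the libraries is unknown. In bulk RNA, fewer cells of a type and less RNA per cell cannot be told apart.

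Laminin and integrin mRNAs showed 2 patterns in this comparison. The mRNAs of LAMA1, LAMA5 and LAMC1 were nearly equal in the libraries, and LAMB1 and LAMB2 differed by less than 2-fold. LAMA4 was far higher and LAMC3 lower in MEIS2-/- cells. Among integrins, ITGA5, the alpha subunit of the main fibronectin receptor, was at 49.4% of its WT level, whereas ITGA6, an alpha subunit of laminin receptors, was 2.28-fold higher.

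MEIS2 mRNA, the target of the deletion, was at 10.85 FPKM (WT) and 3.44 FPKM (MEIS2-/-), a log2 fold change of -1.63. An mRNA level does not show whether the edit removed the protein, and the paper identified its knockout lines by western blot and sequencing. Endothelium markers were expressed in both libraries, with 10 of 14 compared at least 2-fold lower and none higher in MEIS2-/- cells. Their summed level was 901.52 FPKM (WT) and 216.25 FPKM (MEIS2-/-). Of 8 hematopoiesis markers compared, 4 were at least 2-fold lower and 1 higher, and PTPRC, which encodes CD45, was below 1 FPKM in both libraries. Of 13 visceral endoderm markers, 9 were at least 2-fold higher and none lower, and of 7 pluripotency markers compared 5 were higher and none lower. Of 9 epithelium markers, 6 were higher and the keratins KRT8, KRT18 and KRT19 were lower, and of 9 mesenchyme markers 3 were lower. PECAM1, a defining endothelial surface protein, was at 1.53 and 0.93 FPKM, and HBZ, an embryonic globin, was listed at 0 in WT cells. The part of these cell types in the results below was not tested.

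Of the 36 genes, 24 reached 1 FPKM in at least 1 library, among them 7 laminin chains, 11 alpha subunits and 6 beta subunits. Of these 24, 6 (25.0%) were lower by 2-fold or more in MEIS2-/- cells, against 7.97% of all genes compared, and 3 (12.5%) were at least 2-fold higher, against 7.84% of all genes compared. Of the 24 genes, 17 reached 1 FPKM in both libraries. The other 7 (LAMA4, ITGA8, ITGA10, ITGB2, ITGB3, ITGB4 and ITGB8) did so in 1 library and so had to differ to some degree, and these counts are given as a description. The median log2 fold change was -0.02 over all 11 laminin chains, -0.17 over all 17 alpha subunits found (-0.30 over the 11 that reached 1 FPKM) and 0.62 over all 8 beta subunits, with ITGB6, which was listed at 0 in WT cells, taken at its value after the addition of 0.1 FPKM. The remaining 12 genes were below 1 FPKM in both libraries, namely LAMA2, LAMA3, LAMB3, LAMB4, ITGA2, ITGA4, ITGA11, ITGAL, ITGAM, ITGAX, ITGB6 and ITGB7.

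**Figure D1:**
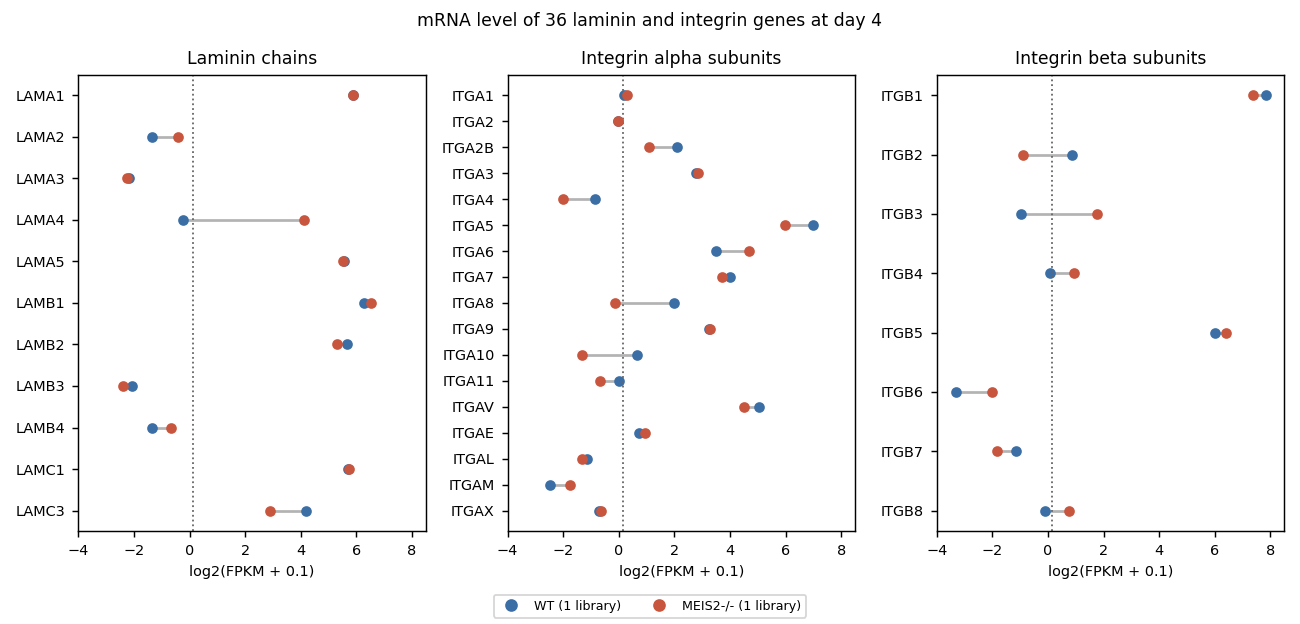
mRNA levels of the 36 laminin and integrin genes as log2(FPKM + 0.1), with 1 point per library (blue WT, red MEIS2-/-), a grey line between the libraries and a dotted line at 1 FPKM. LAMA1, LAMA5 and LAMC1 nearly coincide, while LAMA4 moves from 0.75 to 17.33 FPKM and ITGA5 from 126.12 to 62.27 FPKM.

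The laminin alpha chains decide which receptors a laminin binds. LAMA1, which encodes the alpha chain of the first laminin made in the embryo, was at 59.13 FPKM (WT) and 58.15 FPKM (MEIS2-/-). LAMA5, the alpha chain of the laminins that support pluripotent and epithelial cells, was at 46.97 FPKM and 45.57 FPKM. Both differed by less than 0.05 on the log2 scale, and they were the most abundant alpha chains in both libraries. LAMA4, the alpha chain typical of vascular and mesenchymal basement membranes, was at 0.75 FPKM (WT) and 17.33 FPKM (MEIS2-/-). This was a 23.1-fold difference in FPKM and a log2 fold change of 4.36, which ranked 4 among the rises of the 9326 genes that reached 5 FPKM in at least 1 library. LAMA2, the chain of muscle laminin, was at 0.29 FPKM and 0.65 FPKM, and LAMA3, the chain of epithelial laminin, at 0.12 FPKM and 0.11 FPKM.

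The 5 alpha chains summed to 107.26 FPKM (WT) and 121.81 FPKM (MEIS2-/-). Of this sum, LAMA4 made up 0.699% (WT) and 14.2% (MEIS2-/-), and LAMA1 and LAMA5 together made up nearly all of the rest. LAMA1 was 78.8 times as abundant as LAMA4 in WT cells and 3.36 times as abundant in MEIS2-/- cells. The order of the chains was the same in both libraries for the 3 highest, LAMA1, LAMA5 and LAMA4.

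The level of LAMA4 was higher in the library in which endothelium markers were lower. KDR, the VEGF receptor of endothelial precursors, was at 323.77 FPKM (WT) and 61.98 FPKM (MEIS2-/-), and CDH5, which encodes VE-cadherin, was at 15.20 FPKM and 5.02 FPKM. Mesenchyme, another cell type in which LAMA4 is known to be expressed, had a marker median of -0.78 on the log2 scale. Of its 9 markers compared, 3 were at least 2-fold lower and none higher. Visceral endoderm markers, with APOA1 the highest of them at 401.38 and 879.13 FPKM, moved in the same direction as LAMA4. So did the 7 pluripotency markers compared and 6 of 9 epithelium markers, while the other 3 epithelium markers were lower. The part of these cell types in the level of LAMA4 was not tested. The level of LAMA4 is a sum over 5 transcripts in the tables. In GENCODE 29, 2 of them correspond to a transcript of 645 bases and the others to transcripts of 6438 and 6547 bases. A fragment assigned to the short transcript weighs more in FPKM, and the deposited values do not show which transcript was present. The library kit does not mark the strand, so reads of LAMA4 and of the antisense gene LAMA4-AS1 cannot be told apart where they overlap.

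The beta chains join the alpha chain in the trimer. LAMB1, the beta chain of embryonic laminin, was at 76.67 FPKM (WT) and 91.57 FPKM (MEIS2-/-), a log2 fold change of 0.26. LAMB2, the beta chain typical of muscle, kidney and vessel walls, was at 50.99 FPKM and 39.13 FPKM, a log2 fold change of -0.38. LAMB1 made up 59.9% of the beta chains in WT cells and 69.7% in MEIS2-/- cells, while the sum of the 4 beta chains was 128.09 FPKM and 131.32 FPKM. LAMB3, a beta chain of epithelial laminin, and LAMB4 were each below 0.6 FPKM in both libraries.

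LAMC1, the gamma chain of most laminins, was at 52.39 FPKM (WT) and 53.64 FPKM (MEIS2-/-). LAMC3, a less widespread gamma chain, was at 18.26 FPKM and 7.27 FPKM, a log2 fold change of -1.32. LAMC1 was 2.87 times as abundant as LAMC3 in WT cells and 7.38 times as abundant in MEIS2-/- cells.

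**Figure D2:**
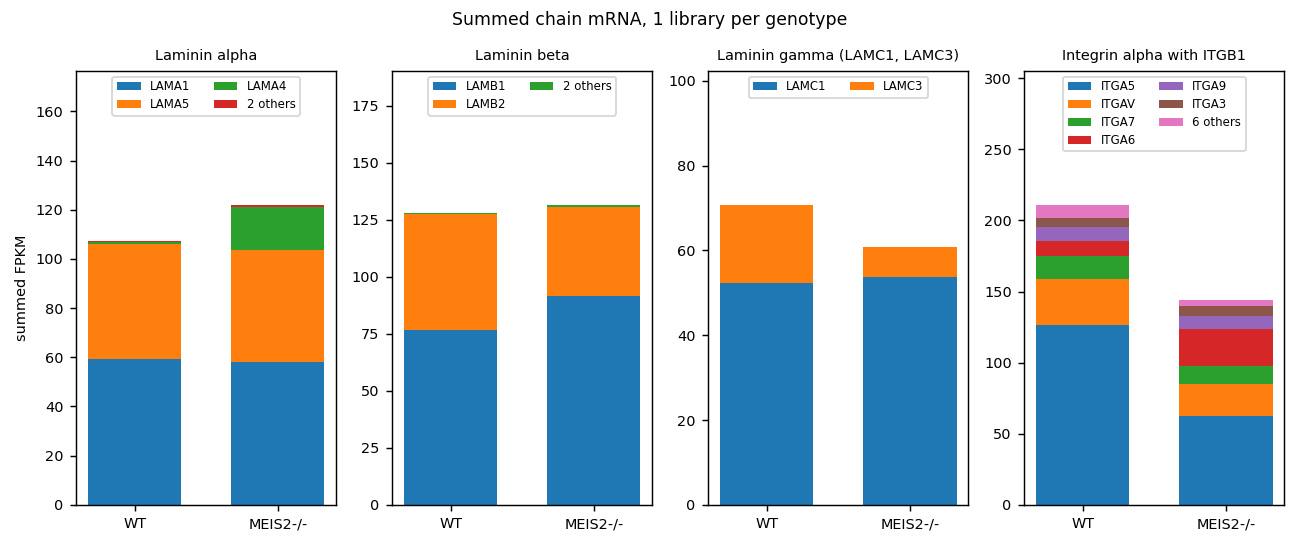
Summed FPKM of the laminin alpha chains, the beta chains, the gamma chains LAMC1 and LAMC3, and the integrin alpha subunits that pair with ITGB1, stacked by gene for each library, with axes that start at 0. The laminin sums are similar in both libraries with a LAMA4 segment in MEIS2-/- cells, while the integrin alpha sum is 210.62 FPKM (WT) and 143.73 FPKM (MEIS2-/-).

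To compare laminins as trimers, the chain with the lowest FPKM was taken for each of 13 known trimers whose chains were all among the genes examined. It is the chain whose mRNA was scarcest, and neither translation nor assembly was measured. Trimers share chains, so this chain need not set the amount of a trimer. For laminin-111 the scarcest chain was LAMC1 in both libraries, with a log2 fold change of 0.03. For laminin-511 it was LAMA5, with -0.04. For laminin-121 it was LAMB2, with -0.38, and for laminin-521 it was LAMA5 in WT cells and LAMB2 in MEIS2-/- cells, with -0.26. Laminin-111, laminin-511, laminin-121 and laminin-521 thus differed by less than 2-fold on this measure. For laminin-411 and laminin-421, the laminins of endothelium, LAMA4 was the scarcest chain in both libraries, at 0.75 FPKM and 17.33 FPKM. For laminin-523, which also holds LAMA5, LAMC3 was scarcest in both libraries, at 18.26 FPKM and 7.27 FPKM, a log2 fold change of -1.32. In laminin-423 the scarcest chain was LAMA4 in WT cells and LAMC3 in MEIS2-/- cells. The 5 trimers with LAMA2 or LAMA3 had a scarcest chain below 1 FPKM in both libraries.

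ITGB1, the beta subunit shared by 12 alpha subunits, was the most abundant integrin in both libraries, at 229.74 FPKM (WT) and 164.72 FPKM (MEIS2-/-), a log2 fold change of -0.48. The 12 alpha subunits that pair with it summed to 210.62 FPKM and 143.73 FPKM, a log2 fold change of -0.55. The lower sum was mostly that of ITGA5, and the 12 alpha subunits did not move together, with log2 fold changes from -2.10 for ITGA8 to 1.18 for ITGA6. Every ITGB1 pair had its alpha subunit as the scarcer mRNA in both libraries.

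ITGA5, ITGAV, ITGA8 and ITGA2B belong to receptors that bind the RGD sequence of fibronectin, vitronectin and related ligands. ITGA5, the highest alpha subunit in both libraries, was at 126.12 FPKM (WT) and 62.27 FPKM (MEIS2-/-), a log2 fold change of -1.02 that lay just past the 2-fold threshold. ITGAV, which pairs with 5 beta subunits, was at 32.68 FPKM and 22.71 FPKM, with -0.52. ITGA8, a receptor of nephronectin in kidney and mesenchyme, was at 3.85 FPKM and 0.82 FPKM, with -2.10. ITGA2B, which forms the platelet fibrinogen receptor with ITGB3, was at 4.16 FPKM and 2.03 FPKM, which is exactly 2-fold after the addition of 0.1 FPKM. Each of the 4 had its higher value in WT cells, and their sum was 166.81 FPKM and 87.83 FPKM. FN1, which encodes fibronectin, the ligand of ITGA5, was at 899.77 FPKM (WT) and 1194.54 FPKM (MEIS2-/-), a difference in the other direction.

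The beta subunits that pair with ITGAV differed among themselves. ITGB3, which with ITGAV forms a vitronectin receptor of vessels and osteoclasts, was at 0.41 FPKM (WT) and 3.27 FPKM (MEIS2-/-), a log2 fold change of 2.72. ITGB5, also a vitronectin receptor subunit, was at 63.66 FPKM and 83.63 FPKM, with 0.39. ITGB8, which takes part in the activation of TGF-beta, was at 0.83 FPKM and 1.60 FPKM, with 0.87. ITGB6, an epithelial subunit with the same role, was listed at 0 in WT cells and at 0.15 FPKM in MEIS2-/- cells, and no fold change is given for it. ITGB3, ITGB5 and ITGB8 were thus higher in MEIS2-/- cells, in contrast to ITGB1 and ITGAV. Only ITGB5 among these beta subunits with a higher value reached 1 FPKM in both libraries. The ratio of ITGB5 to ITGAV was 1.95 in WT cells and 3.68 in MEIS2-/- cells, and ITGAV was the scarcer mRNA of this pair in both libraries. ITGB3 was the scarcer mRNA of its pair with ITGA2B in WT cells and ITGA2B the scarcer in MEIS2-/- cells.

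Receptors of laminin are built on ITGA3, ITGA6 and ITGA7. ITGA6, which pairs with ITGB1 and in hemidesmosomes with ITGB4, was at 11.18 FPKM (WT) and 25.45 FPKM (MEIS2-/-), a log2 fold change of 1.18. ITGA3, a receptor of the laminins with LAMA3 and LAMA5, was at 6.70 FPKM and 7.02 FPKM, with 0.07. ITGA7, the laminin receptor of muscle, was at 15.86 FPKM and 12.87 FPKM, with -0.30. ITGA7 was the highest of the 3 in WT cells and ITGA6 in MEIS2-/- cells, and their sum was 33.74 FPKM and 45.34 FPKM. ITGB4 was at 0.95 FPKM and 1.80 FPKM, with 0.86, and was the scarcer mRNA of its pair with ITGA6 in both libraries. ITGA5 was 11.3 times as abundant as ITGA6 in WT cells and 2.45 times as abundant in MEIS2-/- cells.

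ITGA6 was higher together with 6 of the 9 epithelium markers, of which EPCAM, an epithelial adhesion protein, was at 62.01 FPKM (WT) and 178.61 FPKM (MEIS2-/-) and CDH1, which encodes E-cadherin, at 10.68 FPKM and 33.35 FPKM. The 3 most abundant epithelium markers, the keratins, were lower, with KRT8 at 2871.22 FPKM and 1227.58 FPKM, and the summed level of the list was 6604.91 FPKM and 3460.46 FPKM. Of the pluripotency markers, POU5F1 was at 285.65 FPKM and 1454.14 FPKM, LIN28A at 187.31 FPKM and 204.79 FPKM, and SOX2, a defining factor of pluripotent cells, at 0.09 FPKM and 0.15 FPKM. ITGA6 is expressed by epithelial and pluripotent cells, among others. Endothelium markers moved the other way, with 10 of 14 compared at least 2-fold lower. The part of any cell type in the level of ITGA6 was not tested. Reads of ITGA6 and its antisense gene ITGA6-AS1 cannot be told apart where they overlap.

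Receptors of collagen were low. ITGA1 was at 1.03 FPKM (WT) and 1.13 FPKM (MEIS2-/-), ITGA2 at 0.87 FPKM and 0.88 FPKM, and ITGA11 at 0.90 FPKM and 0.52 FPKM. ITGA10, a receptor typical of cartilage, was at 1.48 FPKM and 0.30 FPKM, a log2 fold change of -1.98. The 4 subunits together summed to 4.28 FPKM and 2.83 FPKM, a small part of the alpha subunits that pair with ITGB1 in each library. The collagen genes COL1A1 and COL1A2 were lower by 2-fold or more in MEIS2-/- cells, with log2 fold changes of -1.53 and -1.32. COL3A1 was at 38.58 FPKM (WT) and 41.47 FPKM (MEIS2-/-), with 0.10.

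Of the related subunits ITGA4 and ITGA9, ITGA9 was at 9.49 FPKM (WT) and 9.61 FPKM (MEIS2-/-), and ITGA4, which blood precursors use to bind VCAM1, was at 0.46 FPKM and 0.15 FPKM. The leukocyte subunits were at or near the floor. ITGB2, the beta subunit shared by leukocyte integrins, was at 1.72 FPKM and 0.43 FPKM, a log2 fold change of -1.78. Its partners ITGAL, ITGAM and ITGAX ranged from 0.08 to 0.54 FPKM over both libraries. ITGAE was at 1.55 FPKM and 1.84 FPKM and its partner ITGB7 at 0.35 FPKM and 0.18 FPKM. None of the leukocyte pairs had both subunits above 1 FPKM in either library. Of 8 hematopoiesis markers compared, TAL1, GATA2, GFI1 and LMO2 were lower by 2-fold or more in MEIS2-/- cells. HBE1, a globin gene, was at least 2-fold higher, at 0.42 FPKM (WT) and 2.06 FPKM (MEIS2-/-), and the other 3 were within 2-fold. The part of blood cells in the levels of ITGB2 and ITGA2B was not tested.

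Over the 23 integrin pairs whose subunits were both found, the scarcer subunit reached 1 FPKM in at least 1 library for 14. Of these 14 pairs, 3 were lower by 2-fold or more in MEIS2-/- cells, namely those of ITGB1 with ITGA5, ITGA8 and ITGA10, the last of which was at -0.93 and no longer past 2-fold with a pseudocount of 1 FPKM. Another 3 were at least 2-fold higher, namely ITGB1 with ITGA6 and ITGB3 with ITGAV and ITGA2B. The higher values of the pairs with ITGB3 rest on a subunit at 0.41 FPKM in WT cells. The scarcer subunit reached 1 FPKM only in MEIS2-/- cells for these pairs, and only in WT cells for those of ITGA8 and ITGA10. All of these had to differ to some degree, and the counts are given as a description. Among all single genes compared, 7.97% were at least 2-fold lower and 7.84% higher.

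**Figure D3:**
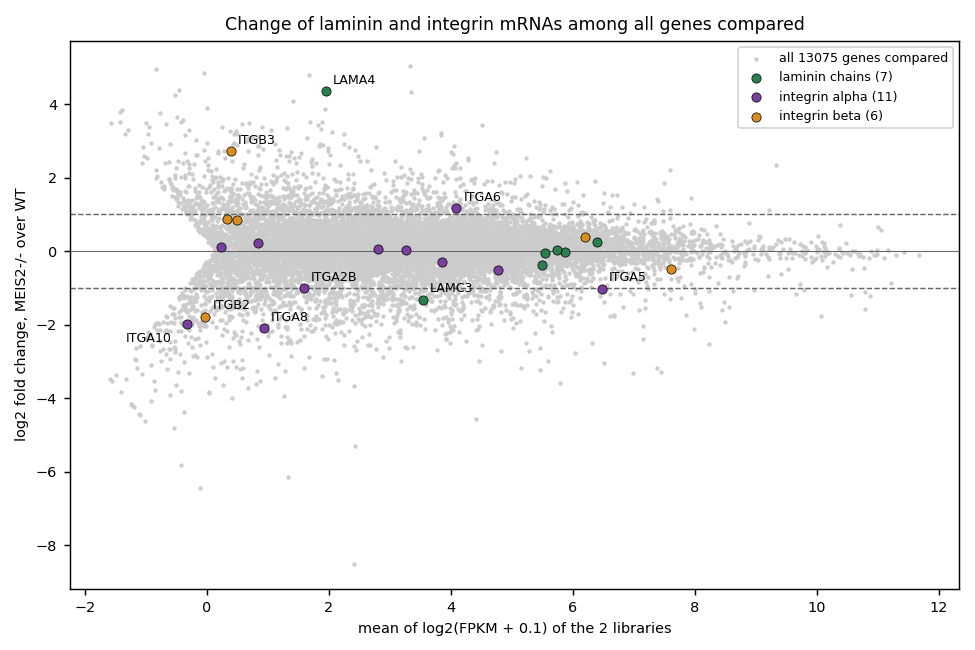
Log2 fold change of MEIS2-/- over WT against the mean level of the libraries for the 13075 genes compared (grey) and for the 7 laminin chains, 11 integrin alpha and 6 integrin beta subunits among them (coloured), with dashed lines at 2-fold. The spread of all genes widens at low levels, where ITGB3, ITGB2, ITGA8 and ITGA10 lie, and LAMA4 stands near the upper edge.

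Near the threshold, ITGA2B lay exactly at 2-fold lower and ITGA5, at -1.02, just past it, and ITGB8 at 0.87 and ITGB4 at 0.86 lay just inside it. The level of a gene bears on how far its change can be read. LAMC3, ITGA5 and ITGA6 were above 5 FPKM in both libraries, LAMA4 in MEIS2-/- cells, and the other 5 genes counted as changed were below 5 FPKM in both.

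The promoter sequences of the genes that were at least 2-fold changed and above 5 FPKM in a library are shown because these genes carry the pattern. Sequences came from RefSeq on GRCh38.p14, which is not the hg19 build named for the files, and LAMC3 had no entry. From the 250 bases before the start of the gene, the longest stretch free of exons annotated in GENCODE 29 is printed in the direction of transcription. Capitals mark matches, on either strand, to 3 motifs that differ from each other, TGACAG for MEIS factors, AGATAA for GATA factors and CAGATG for the E-box bound by TAL1. The stretches lie at chr6:112254723-112254785 (minus strand) for LAMA4, chr12:54419461-54419516 (minus strand) for ITGA5 and chr2:172427086-172427335 (plus strand) for ITGA6.
LAMA4: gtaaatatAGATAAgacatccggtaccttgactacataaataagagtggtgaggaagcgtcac
ITGA5: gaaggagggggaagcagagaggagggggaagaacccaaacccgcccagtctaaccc
ITGA6: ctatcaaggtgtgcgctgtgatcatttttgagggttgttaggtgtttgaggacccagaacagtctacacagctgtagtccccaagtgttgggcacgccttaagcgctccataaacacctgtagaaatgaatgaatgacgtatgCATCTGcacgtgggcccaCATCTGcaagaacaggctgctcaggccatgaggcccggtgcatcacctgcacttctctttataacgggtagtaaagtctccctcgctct

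The LAMA4 stretch holds 1 GATA match and the ITGA6 stretch 2 matches to the E-box, and the full 250 bases of these 3 genes hold no match to TGACAG. Of 35116 promoter windows of this length, 13.0% hold TGACAG, 9.17% AGATAA and 12.2% CAGATG. The 26 laminin and integrin genes with an entry had 33 windows, of which 7 held TGACAG (ITGA1, ITGA8, ITGA11, ITGAE, ITGB7, LAMB3 and LAMB4), 2 held AGATAA (ITGAV and LAMA4) and 3 held CAGATG (ITGA6 and LAMB3). These letters occur in many promoters, no binding was measured here, and a window without them says nothing about binding elsewhere.

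Proteins that work with laminins and integrins were compared next, from lists written by role. Of 13 compared partners in the basement membrane, 12 were within 2-fold. NID2, which links laminin with collagen IV, was at 57.92 FPKM (WT) and 24.84 FPKM (MEIS2-/-), a log2 fold change of -1.22. NID1, its relative, was at 21.90 FPKM and 12.59 FPKM, with -0.79. The collagen IV genes COL4A1 and COL4A2, at 197.03 and 191.25 FPKM in WT cells, had log2 fold changes of 0.13 and 0.30, and COL18A1, the highest of the list, was at 455.79 FPKM and 438.06 FPKM. The basement membrane genes thus resembled the main laminin chains in that most differed little, as did 84.2% of all genes compared.

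Of 10 compared laminin receptors that are no integrins, 2 were at least 2-fold higher and 1 lower. Among all genes compared the shares were 7.84% and 7.97%. BCAM, a receptor for LAMA5, was at 41.33 FPKM (WT) and 89.33 FPKM (MEIS2-/-), a log2 fold change of 1.11. SDC2, a heparan sulfate proteoglycan, was at 29.42 FPKM and 65.98 FPKM, with 1.16. DAG1, which encodes dystroglycan, the receptor for LAMA1 and LAMA2, was at 43.59 FPKM and 52.93 FPKM, with 0.28. SGCA, a subunit of the dystroglycan complex of muscle, was the lower gene, at 3.27 FPKM and 1.12 FPKM. RPSA, the highest gene of the list, is also a ribosomal protein and was at 1284.40 FPKM and 1352.71 FPKM.

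Of 24 compared integrin ligands other than laminin, 5 were at least 2-fold higher and 5 lower, against 7.84% and 7.97% of all genes compared. Fibrinogen genes, ligands of ITGA2B and ITGAV with ITGB3 and products of liver and visceral endoderm, were higher, with FGB at 2.16 FPKM (WT) and 45.66 FPKM (MEIS2-/-) and FGA at 3.13 FPKM and 7.31 FPKM. CDH1, the ligand of ITGAE, was also among the higher genes, as were FGG and VCAM1, the latter at 0.49 FPKM (WT) and 2.06 FPKM (MEIS2-/-). TGFB1, whose latent form is bound by ITGAV pairs, was at 246.39 FPKM and 84.42 FPKM, a log2 fold change of -1.54. EMILIN1, a ligand of ITGA4 and ITGA9, was at 12.93 FPKM and 5.30 FPKM, with -1.27, and COL1A1, COL1A2 and ICAM1 were the other lower ligands.

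Of 22 compared adhesion proteins inside the cell, 4 were at least 2-fold higher, 1 was lower and 17 were within 2-fold. Of all genes compared, 7.84% were higher, 7.97% lower and 84.2% within 2-fold. Among the 17 were ZYX, the highest of the list at 156.99 and 196.67 FPKM, ILK, TLN1, PTK2, PXN and VCL. TNS3, which binds integrin tails, was at 6.73 FPKM (WT) and 21.65 FPKM (MEIS2-/-), a log2 fold change of 1.67. TLN2, a talin, was at 8.33 FPKM and 18.48 FPKM, with 1.14, and PTK2B, a relative of focal adhesion kinase, was at 4.96 FPKM and 11.29 FPKM, with 1.17. FERMT1, an epithelial kindlin, was the remaining higher gene, at 0.41 FPKM and 1.11 FPKM. TNS1, a relative of TNS3, was the lower gene, at 4.67 FPKM and 2.05 FPKM, with -1.15. Of 7 hemidesmosome and tetraspanin partners, COL17A1 was at least 2-fold higher, at 1.01 FPKM and 3.31 FPKM, CD63, the highest of the list, was at 461.78 FPKM and 452.19 FPKM, and CD151, the tetraspanin partner of ITGA3 and ITGA6, was at 152.66 FPKM and 153.06 FPKM.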

How the data were processed

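RNA-Seq was performed by BGI from total RNA, with Trizol extraction and an Illumina TruSeq RNA kit per the labels. The authors deposited 1 FPKM value per gene and library, with 2 decimals, under NCBI Gene numbers. The submitters' processing notes name hg19, BWA, Bowtie and RSEM, without versions or roles. Numbers were matched to symbols of RefSeq (17365 of 17397). Low values of genes with 1 transcript did not fall on whole-read steps (agreement at most 0.083 and 0.086, where 1 is complete, over 145 and 158 genes), so depth is unknown and no counting interval is given.

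Log2 fold changes used a pseudocount of 0.1 FPKM and genes that reached 1 FPKM in either library. A ratio of exactly 2 counted as 2-fold. Members and lists were chosen with earlier results of these data known. All members were named, with genes of other lists at 5 FPKM or more and changed at least 2-fold, the highest gene of each list and MEIS2. Genes named beyond this rule (NID1, the COL4A genes, COL3A1, DAG1, SGCA, ICAM1, VCAM1, FGG, TNS1, FERMT1, COL17A1, CD151, ILK, TLN1, PTK2, PXN, VCL, PECAM1, HBE1, HBZ, LIN28A, SOX2 and PTPRC) were chosen after their values were seen. Of the marker lists, examples are given. Alternatives were pseudocounts of 1 and 0.01, no filter or 5 FPKM, thresholds of 1.5-fold and 4-fold, and rescaling to a median log2 ratio of 0 or by a trimmed mean of log ratios (30% and 5% trimmed per side). On simulated data, the fold-change count recovered 4-fold changes set into WT values without noise, and both rescalings recovered a set offset. This checks the code of these steps only, and the other steps were not tested in this way. Python 3.11.15, numpy 2.4.6, pandas 2.3.3 and matplotlib 3.10.9 were used.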

Additional observations from a re-analysis of the deposited data

How the results depend on the processing

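No paired analysis was possible because each genotype has 1 library and the labels carry no replicate numbers. With a pseudocount of 1 FPKM, 2 integrin subunits were at least 2-fold lower instead of 5, since ITGA2B (-0.77), ITGA10 (-0.93) and ITGB2 (-0.93) no longer passed (nor did the pair of ITGA10 with ITGB1), all genes numbered 693 lower and 623 higher, and the beta subunit median was 0.45. The medians here are over the genes that passed the filter, which were -0.02 (laminins), -0.30 (alpha) and 0.62 (beta) as first computed. Without a filter, 1567 genes were higher and the alpha subunit median was -0.17. With a filter at 5 FPKM, 1 integrin subunit was lower and 1 higher, 598 genes were lower and 554 higher, and the medians were -0.14 for alpha and -0.043 for beta subunits, the latter over fewer genes. At 1.5-fold, 4 integrin subunits were higher, and 1890 genes were lower and 2353 higher. At 4-fold, no laminin chain (0) was lower, 1 integrin subunit was lower and 1 higher, and 241 genes were lower and 194 higher. Rescaling lowered log2 ratios by up to 0.12, less for low genes. These medians became -0.15 (laminins), -0.42 (alpha) and 0.51 (beta) with either scaling. Over pseudocounts and scalings, 97 of 100 values for single genes stayed on their side of 2-fold, and none past 2-fold changed direction. LAMA4 ranged from 3.39 to 4.51, LAMC3 from -1.44 to -1.22, ITGA5 from -1.14 to -1.01 and ITGA6 from 1.06 to 1.19. LAMC1, ITGA3 and ITGA9, near 0, changed sign under rescaling. The tables hold no counts, so the precision of genes near 1 FPKM is unknown.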
